A study of Drosophila melanogaster with 3 samples.

Results

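The members are the intergenic peaks near genes in a map of the Drosophila transcription factor Gooseberry-neuro (Gsb-n). They are the peaks of the authors' optimal list whose summit lies more than 500 and at most 10000 bp from the nearest transcription start site (TSS) of a protein-coding gene and outside every protein-coding gene body. They number 1013 of 5746 peaks, or 17.6%. The other peaks were 1853 inside gene bodies at the same distances, 2031 within 500 bp of a TSS and 849 over 10000 bp from any TSS. The optimal list was chosen by the irreproducible discovery rate (IDR), a measure of how consistently peaks are ordered between replicates. Within this list, the choice of members used the position of the summit and the gene annotation, not the height of the peak. The list itself holds the 5746 highest peaks of a list pooled from all 3 replicates, so every member had passed a cut on height.

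Chromatin immunoprecipitation and sequencing (ChIP-seq) had been carried out on 3 biological replicates of 1 group. These were whole Drosophila melanogaster embryos, 4 to 14 h old, of 1 transgenic line with an insertion that expresses gsb-n with GFP at its C terminus. The antibody recognised GFP, and chromatin was sonicated to 200 to 800 bp. Sex was not collected, the promoter and copy number of the insertion are not given in the labels, and all 3 replicates come from the same line. The peak lists were called against a control that is not among the samples, so no control value can be set beside these. Each replicate list holds 30000 peaks, with rank 1 the highest signal, and because read counts are given in none, sequencing depth is unknown. The signal scale differs between lists, so peaks are followed across replicates by rank. Replicates are shown through their top 5746 peaks, the length of the optimal list.

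Gsb-n belongs to the Pax family of transcription factors. These proteins read DNA through a paired domain and a homeodomain, and the homeodomains of this class can bind as pairs to inverted TAAT sites. The gene lies beside its paralogue gooseberry (gsb), a segment polarity gene, and is known for its part in the embryonic nervous system. In Drosophila, sequence between genes and near their start sites holds many enhancers, the elements through which such factors act on a gene from a distance. A peak shows where the tagged protein was recovered with chromatin and does not show which gene, if any, responds.

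The sequences of 3 of the strongest members are given as examples. Sequence from 1 arm is not shown, so stronger members there are passed over in these examples. On the arms shown, the stronger members near eEF1gamma (optimal-list rank 29) and CG4004 (rank 42) are also passed over. Each reaches 100 bases to either side of the summit, from the RefSeq copy of the dm6 assembly, plus strand, written 5′ to 3′. Capitals would mark TAATTA, the core that homeodomains bind, and the hexamers AGTGTA and CAGTGC on either strand, which are described further on.
CG31668, chr2L:2202308-2202508: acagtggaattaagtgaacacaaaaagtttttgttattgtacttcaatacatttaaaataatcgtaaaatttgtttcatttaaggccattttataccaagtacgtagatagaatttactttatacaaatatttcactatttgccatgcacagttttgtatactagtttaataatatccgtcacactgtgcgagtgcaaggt
hll, chr2L:14023989-14024189: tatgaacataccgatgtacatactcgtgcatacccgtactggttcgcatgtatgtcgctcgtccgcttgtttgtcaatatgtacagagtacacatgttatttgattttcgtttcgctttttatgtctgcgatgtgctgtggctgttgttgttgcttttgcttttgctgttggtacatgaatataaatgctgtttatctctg
CG43131, chr3R:5113170-5113370: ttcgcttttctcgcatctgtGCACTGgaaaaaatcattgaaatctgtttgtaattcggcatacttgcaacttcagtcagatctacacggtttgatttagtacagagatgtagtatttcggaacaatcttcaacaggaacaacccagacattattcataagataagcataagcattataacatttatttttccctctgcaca
TAATTA occurs in none of the 3 windows, and 1 of them has a capital word, GCACTG near CG43131, which is CAGTGC on the minus strand. The windows of the eEF1gamma and CG4004 members that were passed over hold no such word. Of the 15 strongest members, 5 hold TAATTA in this window: those near Psc, l(3)neo38, CG13321 and CG33453 and the second near CG4004.

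From the arms shown, the 3 strongest members that hold a paired-class dimer, TAAT and ATTA with 2 or 3 bases between them, let the sites be seen. Each line is centred on the dimer with about 50 bases to either side, plus strand, dm6, from the RefSeq assembly, with the dimer in capitals.
Best4, chr3L:15289506-15289606: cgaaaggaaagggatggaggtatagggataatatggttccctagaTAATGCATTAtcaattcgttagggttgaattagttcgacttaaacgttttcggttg
Rh5, chr2L:12006834-12006934: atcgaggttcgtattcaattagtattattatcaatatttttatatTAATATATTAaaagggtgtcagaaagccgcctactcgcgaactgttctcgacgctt
lsn, chr3R:21862287-21862387: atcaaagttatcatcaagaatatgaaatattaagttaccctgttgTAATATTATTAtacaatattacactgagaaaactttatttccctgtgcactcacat
The first and the second have 2 bases between the sites, and the third has 3. Their peaks had optimal-list ranks of 278, 316 and 330. The member near CycB, at optimal-list rank 33, also holds a dimer with 2 bases between the sites and is not shown.

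From the arms shown, the 3 strongest members with an outward word on both sides show an arrangement of AGTGTA and CAGTGC in which the words point away from the summit, in 281 bases around it, plus strand, dm6, from the RefSeq assembly. Capitals mark AGTGTA and CAGTGC, or their reverse complements TACACT and GCACTG.
slp2, chr2L:3832395-3832675: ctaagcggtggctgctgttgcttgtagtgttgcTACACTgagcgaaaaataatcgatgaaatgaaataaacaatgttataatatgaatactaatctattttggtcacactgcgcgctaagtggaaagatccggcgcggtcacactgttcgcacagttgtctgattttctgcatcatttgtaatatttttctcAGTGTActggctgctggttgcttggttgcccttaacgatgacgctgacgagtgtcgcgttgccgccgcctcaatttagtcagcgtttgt
CG9300, chr3L:19560696-19560976: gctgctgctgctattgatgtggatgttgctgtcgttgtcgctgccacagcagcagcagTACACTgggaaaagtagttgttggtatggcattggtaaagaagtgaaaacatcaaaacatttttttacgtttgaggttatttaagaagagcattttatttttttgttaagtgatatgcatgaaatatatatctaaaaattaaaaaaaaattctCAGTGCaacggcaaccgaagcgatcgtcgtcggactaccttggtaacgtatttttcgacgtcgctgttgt
Gr93a, chr3R:21828850-21829130: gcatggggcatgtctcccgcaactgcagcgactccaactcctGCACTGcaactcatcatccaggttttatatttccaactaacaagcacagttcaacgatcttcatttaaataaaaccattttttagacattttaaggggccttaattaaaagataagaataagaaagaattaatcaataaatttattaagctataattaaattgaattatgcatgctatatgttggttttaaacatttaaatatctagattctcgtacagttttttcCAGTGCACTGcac
The slp2 member lies between slp1 and slp2 and had an optimal-list rank of 106. The others had ranks of 174 and 263. In the first, TACACT to the left of the summit is followed by A-rich sequence and AGTGTA to the right is preceded by a run of T. In the third, CAGTGC and its reverse complement overlap to the right of the summit.

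The optimal list held 46.3 members per Mb of eligible intergenic sequence (exact Poisson interval 43.5 to 49.3) and 32.7 peaks per Mb of gene body at the same distances (31.2 to 34.2). In the 3 replicates' own top lists, the densities were 45.5, 46.5 and 43.0 members per Mb of intergenic sequence, against 32.8, 32.7 and 29.1 peaks per Mb of gene body. Intergenic density was higher in 3 of 3 replicates and the ranges did not overlap. The ratio averaged 1.43 ± 0.05 (SD, n = 3). An exact two-sided sign-flip permutation test over 3 replicates gave p = 0.25, the smallest value that 3 replicates allow, so no comparison over replicates here can reach 0.05. Intervals on densities and shares cover counting error only, at a confidence of 95%. Replicate 3 had 2447 of its top peaks within 500 bp of a TSS, against 2070 and 2051 in replicates 1 and 2, and had the lowest density in both of the other settings.

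Intergenic density was highest within 2000 bp of the TSS, while density within genes stayed in a narrow range. Over 500 and up to 1000 bp, the top lists had 54.3 ± 2.43 intergenic peaks per Mb and 33.4 ± 1.79 genic peaks per Mb (SD, n = 3). Over 1000 and up to 2000 bp the values were 54.6 ± 0.56 intergenic and 31.7 ± 2.41 genic. Over 2000 and up to 5000 bp they were 44.5 ± 2.83 intergenic and 29.9 ± 2.02 genic. Over 5000 and up to 10000 bp they were 38.1 ± 3.07 intergenic and 32.3 ± 2.38 genic, where the gap between the classes was smallest. At this distance the intergenic values were 40.5, 39.2 and 34.6 in replicates 1 to 3, against genic values of 34.02, 33.4 and 29.6, so each replicate had the higher value between genes. By distance, 334 members lay within 2000 bp of the TSS and 704 within 5000 bp, with a median of 3221 bp. At the inner limit, the nearest members lay at up to 508 bp with signals of 235, 1066 and 160, and the intergenic summits just outside lay at 500, 498 and 498 bp with 186, 264 and 368. At the outer limit, members lay at 9981, 9950 and 9940 bp with signals of 185, 369 and 215, and the summits just outside at 10015, 10038 and 10074 bp with 257, 159 and 196.

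**Figure D1:**
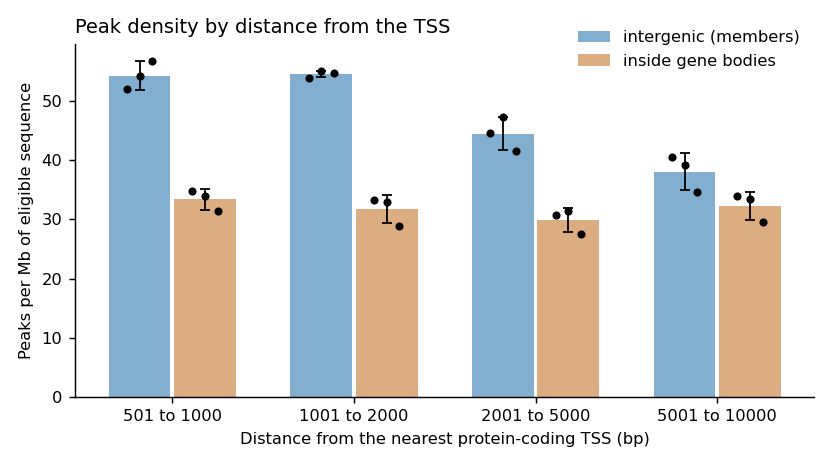
Peaks per Mb of eligible sequence (y axis) by distance from the nearest protein-coding TSS in bp (x axis), for intergenic peaks (blue, left in each pair) and peaks inside gene bodies (orange, right). Bars are means of the 3 replicates' top lists, error bars are SD and points are replicates: the intergenic bars sit between 38.1 and 54.6 and the genic bars between 29.9 and 33.4.

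The X chromosome held few members for its intergenic space. Members on X came to 30.02 per Mb of eligible sequence, against 49.3 per Mb over the other arms, where single arms ranged from 42.1 to 61.8. The X to other-arm ratio was 0.61, 0.58 and 0.59 in the 3 replicates' own lists, all below the ratios of 1.13, 0.94 and 0.97 for genic peaks at the same distances. Genic peaks had 33.8 per Mb on X and 32.4 per Mb elsewhere, so the low value was seen between genes. The difference between the classes had the same direction in 3 of 3 replicates (exact sign-flip permutation p = 0.25, the smallest possible).

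Members lay upstream of the nearest TSS in 697 cases, or 68.8% (95% Wilson interval 65.9% to 71.6%). Eligible intergenic sequence is itself upstream for 65.0% of its length. In the replicates' top lists, 70.1%, 68.1% and 68.7% of intergenic peaks were upstream (mean 69.0% ± 0.99, SD, n = 3), each above that share of the sequence by a few percentage points. The arrangement of the flanking genes differed more. Between divergently transcribed genes, where both genes start at the gap, the top lists held 57.9 ± 3.22 intergenic peaks per Mb, against 39.7 ± 1.49 between genes in tandem and 40.6 ± 0.64 between convergent genes (SD, n = 3). The optimal list had 377 members in divergent gaps, 463 in tandem gaps and 172 in convergent gaps, and 1 near the end of an arm. The 590 gaps with a member had a median length of 10114 bp, against 1595 bp over all 5704 gaps with eligible sequence.

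A member was found in 590 of the 5704 gaps, or 10.3%, and 100 gaps with 3 or more held 401 members, or 39.6%. Gaps differ in length, and no number expected from length was computed. Members within 1000 bp of another member numbered 178, so neighbouring summits are not independent observations. Widths had a median of 416 bp in members and 416 bp in genic peaks, with members from 104 to 743 bp.

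Some members sit at start sites of genes that do not code for protein. A non-coding TSS lay within 500 bp of 108 members, or 10.7%, while 5.55% of the eligible sequence is that close to such a site. In the replicates' own lists the shares were 11.4%, 11.3% and 11.0% of intergenic peaks. Of the 108, 90 were at long non-coding RNA genes, 9 at tRNA genes, 4 at snRNA genes, 2 at antisense RNA genes and 3 at other non-coding RNA genes. Among the 100 strongest members, 20 had a non-coding TSS within 500 bp. The 3 members next below the strongest one were of this kind, at 163 bp from lncRNA:CR44339, 10 bp from lncRNA:CR31840 and 126 bp from lncRNA:CR31044. Annotated transposons cover 7.46% of the eligible sequence and held 4 members, or 0.39%. How well reads can be placed in such repeats was not tested.

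Recovery across replicates gave overlapping intervals for members and genic peaks. Of the 1013 members, 569 had a summit within 100 bp in the top lists of all 3 replicates, or 56.2% (Wilson interval 53.1% to 59.2%), against 57.7% of genic peaks (55.4% to 59.9%). The share over the whole optimal list was 56.8%. A further 280 members were in 2 top lists, 141 in 1 and 23 in none. Per replicate, 80.5%, 84.0% and 73.2% of members were recovered, against 82.5%, 84.5% and 73.0% of genic peaks. Members minus genic peaks came to -2.06, -0.45 and 0.29 percentage points, so the direction differed between replicates (mean -0.74, exact sign-flip permutation p = 0.5). In the full replicate lists, 909 members were found in all 3 replicates and 1 in none.

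Recovery followed the height of the peak, in part by construction. The optimal list and the replicates' top lists are cut on signal at the same length, so peaks near the cut can fall below it in a replicate. Among the 254 members with a signal of 337 or more, 250 were in all 3 top lists. Among the 253 with a signal of 193 or less, 6 were. The median percentile of members within each full replicate list, where 100 is the strongest, was 89.6, 90.3 and 89.0, against 90.5, 90.6 and 89.4 for genic peaks. Members were lower in 3 of 3 replicates, by 0.53 ± 0.35 percentile points (SD, n = 3, exact sign-flip permutation p = 0.25). Of the 100 highest peaks in the whole list, 15 were members, 23 genic and 57 within 500 bp of a TSS.

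The 15 strongest members were in the top lists of all 3 replicates. The first, at chr2L:2202195-2202594, lies 3758 bp downstream of the TSS of CG31668, between COX7AL2 and CG31668. It ranked 8, 7 and 11 in replicates 1 to 3 and 7 in the optimal list. The hll peak ranked 14, 16 and 18, and the peak 5736 bp upstream of eEF1gamma, which codes for a translation elongation factor subunit, ranked 46, 23 and 41. The CG43131 peak at chr3R:5113095-5113456 ranked 45, 43 and 44. The spread between replicates was small for these peaks against lists of 30000.

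The rest of the 15 strongest members lay near genes of varied roles. Psc, which codes for a Polycomb group protein, had a member 4210 bp upstream that ranked 6, 9 and 16. The Hox gene Antp had 1 member, 1799 bp upstream, that ranked 69, 103 and 66. Taranis (tara), a regulator of the cell cycle and of chromatin, had 2 of the 15 strongest, at 3134 and 1137 bp upstream, which ranked 114, 45 and 49, and 107, 61 and 108. CycB, which codes for a mitotic cyclin, had a member at ranks 42, 29 and 40, and l(3)neo38 had one at ranks 53, 99 and 96. CG4004 had 2, at ranks 26, 75 and 60, and 78, 88 and 126. The last 3 of the 15 varied more between replicates. CG13321 ranked 58, 127 and 161, CG10939 123, 95 and 59, and CG33453 64, 170 and 92.

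Members were spread thinly over genes. A gene was nearest to at least 1 member for 664 of 13945 protein-coding genes, or 4.76%, and flanked the gap of a member for 1036, or 7.43%. Of the 664 genes, 465 had 1 member and 83 had 3 or more. A gene nearest to a member had a promoter peak of its own for 252 members, or 24.9%, against 44.6% of genic peaks. In the replicates' own lists these shares were 20.6%, 25.3% and 26.2% for intergenic peaks, against 39.2%, 47.3% and 46.3% for genic peaks. The difference averaged -20.3 ± 1.68 percentage points (SD, n = 3, exact sign-flip permutation p = 0.25, the smallest possible). A gene counts once for each of its peaks in these shares. The share of all protein-coding genes with a promoter peak is not set beside them, so they do not place members against the background.

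The gene with the most members was CG43131, with 9. It stands between corto, which codes for a chromatin factor, and RabGGTa, which codes for a prenyltransferase subunit. The gap from corto to CG43131 spans 21605 bp and held 10 members, and the gap from CG43131 to RabGGTa spans 18908 bp and held 9. Signals in the first gap ran from 176 to 802, and in the second from 163 to 1717. Of the 9 members nearest to CG43131, 6 were in the top lists of all 3 replicates. RabGGTa itself had 6, with signals up to 263.

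The gooseberry locus was the next. The gap of 9632 bp between gsb-n and gsb, which are transcribed away from each other, held 5 members, and the gap of 7983 bp between gsb and gol held 3. Nearest to gsb were 7 members. The strongest, 6736 bp downstream of its TSS, ranked 343, 164 and 245 in replicates 1 to 3. The member 4583 bp upstream ranked 554, 594 and 367. Of the 7, 5 were in the top lists of all 3 replicates. The member 6938 bp downstream overlaps the strongest, with the same start, and was in 1 top list. The member 3734 bp upstream had no summit within 100 bp in the list of replicate 2. The 1 member nearest to gsb-n had a signal of 838. These 8 peaks lie beside the tagged gene, and extra copies of this region carried by the insertion were not tested.

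**Figure D2:**
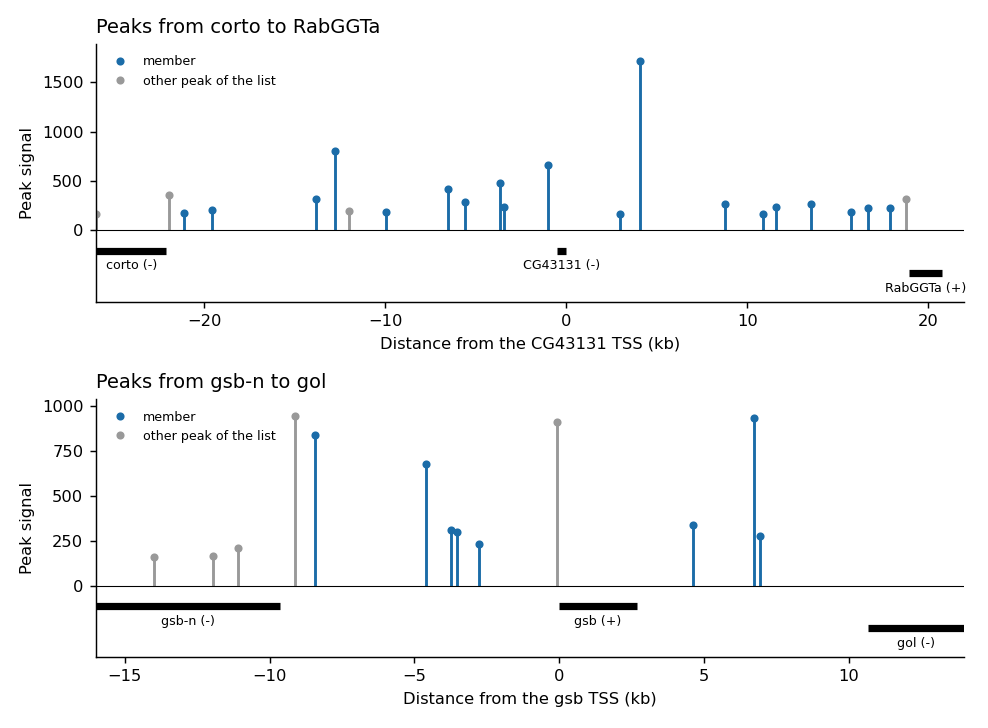
Peak signal on the authors' scale (y axis) against distance in kb from the TSS of CG43131 (upper panel) and of gsb (lower panel), with members in blue, other peaks of the optimal list in grey and protein-coding genes as black bars with their strand. The highest member reaches 1717 between CG43131 and RabGGTa, and 8 members lie between gsb-n and gol.

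Genes that followed with 6 members each were Rh5, CG4218, CG15283, CG7560, CG43354, CG13898, CG14662, CG43402 and RabGGTa. Rh5, a rhodopsin gene, had its 6 within 6.91 kb of eligible sequence, and CG7560 had all 6 upstream. The gap between CG44362 and CG7560 held 10 members. The sloppy paired gene slp2, a forkhead factor of the segmentation cascade, had 5. The strongest of these lies in the 9740 bp between slp1 and slp2 and had signals of 476, 525 and 245 on the replicates' own scales. The other 4 lie 3935 to 9940 bp downstream, with signals of 215 to 465.

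The share of genes nearest to a member varied between lists. Of 18 segment polarity genes, 12 were nearest to a member (66.7%), against 4.76% of all genes, with 24 members and a median of 1 per gene, against a median of 0 over all genes. Of 10 pair-rule genes, 6 were nearest to a member. For Notch and E(spl) genes it was 12 of 21, for neuron identity genes 11 of 22, for endoderm and Malpighian tubule genes 8 of 16, and for genes of the ectoderm, trachea and NK cluster 12 of 25. Mesoderm and muscle genes had 13 of 29, Polycomb group and BTB factor genes 9 of 24, gap genes 5 of 14 and Wnt genes 7 of 22. Pax and paired-like genes had 7 of 25, neuroblast, proneural and Sox genes 6 of 24, Hox genes and cofactors 2 of 10, axon guidance genes 5 of 26, and genes of EGFR, FGF and BMP signalling 5 of 31. Odorant and gustatory receptor genes had 6 of 119 (5.04%) and Cpr cuticle protein genes 6 of 70 (8.57%). Muscle structural genes had 1 of 16 (6.25%) and cytoplasmic ribosomal protein genes 1 of 92 (1.09%), against 4.76% of all genes. These values rest on few genes, and all of these lists had a mean density over replicates below that of all genes, as given below. In the optimal list itself, Cpr cuticle protein genes had 48.6 members per Mb, above the 46.3 around all genes. The lists overlap, and they were chosen with earlier results of these data known.

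Lists differ in how much eligible sequence surrounds their genes, so densities are given as well. Around Notch and E(spl) genes, the replicates' top lists had 302 ± 23.8 intergenic peaks per Mb (SD, n = 3), against 45.0 ± 1.80 around all protein-coding genes. Polycomb group and BTB factor genes had 220.3 ± 29.4 per Mb and segment polarity genes 191 ± 8.93. Endoderm and Malpighian tubule genes had 152 ± 39.8, neuron identity genes 115.2 ± 13.6 and Wnt genes 100.3 ± 17.7. Pair-rule genes had 108 ± 9.03, Pax and paired-like genes 98.7 ± 11.0, and axon guidance genes 63.4 ± 5.78. In the optimal list, gsb, beside the tagged gene, gave 7 of the 24 segment polarity members. Of the 14 Pax and paired-like members, gsb gave 7 and gsb-n 1. At the low end stood Cpr cuticle protein genes at 41.6 ± 6.94, odorant and gustatory receptor genes at 34.6 ± 2.88, muscle structural genes at 18.2 ± 15.8 and cytoplasmic ribosomal protein genes at 10.4 ± 4.48. In replicate 3, Cpr cuticle protein genes were at 48.6, above the 43.0 around all genes. The 22 terminal neuronal genes had 0 members in 0.05 Mb of eligible sequence. The lists have at most 0.347 Mb of eligible sequence each, so few peaks decide each value, and no test was made between lists.

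**Figure D3:**
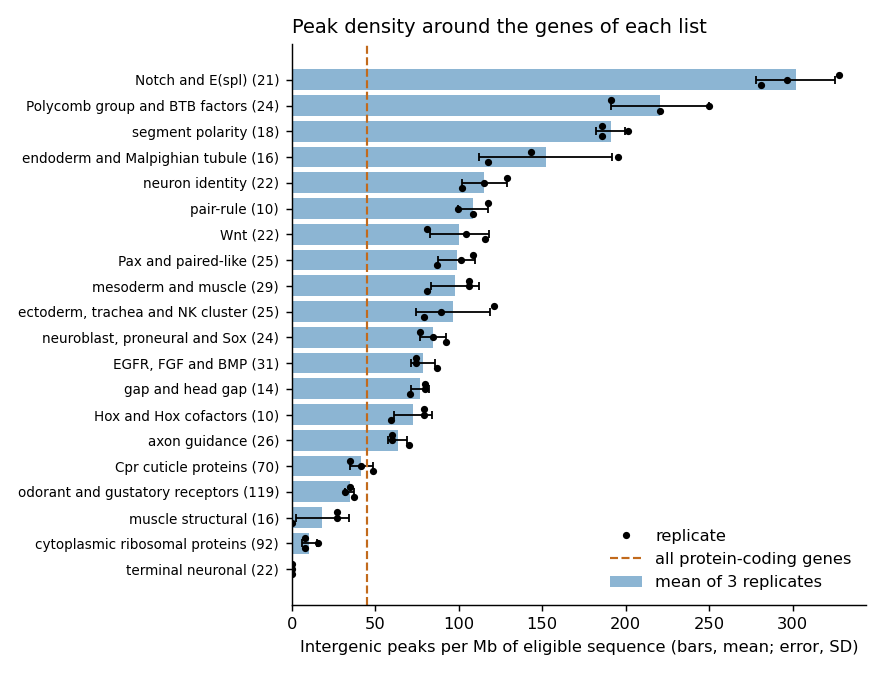
Intergenic peaks per Mb of eligible sequence nearest to the genes of each list (x axis), with the number of genes in brackets. Bars are means of the 3 replicates' top lists, error bars SD, points replicates, and the dashed line the 45.0 per Mb of all protein-coding genes: Notch and E(spl) genes stand at 302 and terminal neuronal genes at 0.

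Within the lists, named genes show where the members fell. In the segment polarity list, gsb had 7 members, slp2 5 and the Wnt receptor gene fz 2, of which the highest had a signal of 760. The ligand gene wg had 1, 7990 bp upstream in the gap towards Wnt4, at ranks 2784, 1750 and 1561. The homeodomain gene en had 1, at 1479 bp upstream, at ranks 3375, 1886 and 1400. The paired gene prd, whose product shares both DNA-binding domains with Gsb-n, had none, and 0 of all 5746 peaks were nearest to it. In the pair-rule list slp1 and eve had 2 each.

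Among the genes named from the nervous system lists, picked by number of members, the highest member stood at zfh1. The gene codes for a zinc finger and homeodomain factor and had 2 members, of which the higher ranked 411, 194 and 241, and the homeobox gene unpg had 2, with a top signal of 489. The proneural-type gene tap had 4, all downstream of its TSS, with a top signal of 266, and the Sox gene D had 3. In the Hox list, the cofactor gene hth had 4, all upstream, with signals of 164 to 215, and 1 of them was in all 3 top lists. In the axon guidance list comm2 had 3 and robo2 1.

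Other lists held similar numbers per gene. In the Notch list, E(spl)mgamma-HLH, which codes for a repressor that Notch activates, had 3 members, and E(spl)malpha-BFM and BobA had 2 each. In the Polycomb and BTB list, corto had 4 with a top signal of 802, chinmo 4 with 663 and ph-d 2 with 889. The ETS repressor gene aop had 3 upstream, with a top signal of 748, noc had 5 with 447, and Doc2 had 3 with 463. Among gustatory receptor genes, Gr93a had 4, all in the top lists of all 3 replicates, with a top signal of 851.

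Few of the known motifs searched differed in share between summits and flanks. In 919 members, the window reaching 100 bp to each side of the summit was set against one of the same size 1000 bp away on a side drawn at random, and 94 members whose flank was centred within 300 bp of a summit were left out. Of 32 motifs, 1 was more frequent at summits and 1 less frequent (exact McNemar test, Benjamini-Hochberg adjusted p under 0.05 over 32 motifs), each 3.12% of those tested. With unadjusted p under 0.05, 3 were more and 2 less frequent. Peaks are not independent replicates, so these p-values describe the list. The replicates' top lists share many peaks and are read from the same genome sequence. Sequence shares from the replicates therefore reuse many of the same windows, and their spread does not measure independent repeats.

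TAATTA was found at 16.5% of summits and 13.8% of flanks, a ratio of 1.197 that did not pass (adjusted p = 0.46, exact McNemar). In the replicates' own lists the ratio was 1.13 ± 0.01 (SD, n = 3). There were 1.15 matches per kb within 50 bp of the summit and 0.73 per kb at 50 to 150 bp, against 0.79 per kb at 500 to 1000 bp. In 50 bp steps, 1 step away from the summit, at 350 to 400 bp on its right, had the same 58 matches as each step beside the summit. In the replicates' own lists these rates were 1.06 ± 0.06, 0.76 ± 0.07 and 0.79 ± 0.02 per kb (SD, n = 3). Genic peaks had 1.18 matches per kb within 50 bp and 0.69 per kb at 50 to 150 bp.

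The paired-class dimers, TAAT and ATTA with 2 or 3 bases between them, were less common. With 3 bases between, they were found at 3.16% of summits and 1.41% of flanks (ratio 2.23, adjusted p = 0.16, exact McNemar), and the replicates' ratios were 2.25, 1.56 and 2.20. With 2 bases between, they were at 2.94% and 1.52% (ratio 1.93, exact McNemar adjusted p = 0.28). The paired-domain core GTCACG was at 5.66% of summits and 3.16% of flanks (ratio 1.79, exact McNemar adjusted p = 0.12), with replicate ratios of 1.88, 2.18 and 2.20. None of these passed, and all were above 1 in 3 of 3 replicates, whose lists share many windows. With start sites of all annotated genes, both GTCACG and the dimer with 3 bases between passed, each at an exact McNemar adjusted p of 0.035, and GTCACG also passed with flanks 500 bp away (adjusted p = 0.020). With those flanks the dimer's ratio was 1.36 (exact McNemar adjusted p = 0.65). In all, 59 members held a dimer and 203 held a dimer or TAATTA.

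The motif that passed with more matches at summits was that of the insulator protein Su(Hw), searched as TGCATACTT. It was in 11 of 919 summit windows (1.197%) and 1 flank window (0.11%), a ratio of 11.0 (adjusted p = 0.031, exact McNemar). The call rests on 12 windows, and replicates gave ratios of 10, 11 and 2. It was lost with the flank on the other side (ratio 2.75, exact McNemar adjusted p = 0.38), among peaks above the list's median signal (ratio 5, adjusted p = 0.44) and when any 1 replicate was left out (ratios 6 to 7). Leaving a replicate out kept only peaks found in the top lists of the others, so fewer windows were compared. Genic peaks held it in 0.70%. Over all 1013 members 12 held it, and 6 of these 12 were in all 3 top lists. The core of the Polycomb recruiter Pho, searched as GCCATT, was the motif with fewer matches. It was found at 8.38% of summits and 15.3% of flanks (ratio 0.55, adjusted p = 0.000203, exact McNemar), with replicate ratios of 0.58, 0.54 and 0.64. Among peaks above the list's median signal the ratio was 0.54 and the call was lost (exact McNemar adjusted p = 0.16). Genic peaks held it in 10.1%. In the search over all hexamers given below, GCCATT is also 1 of 71 words less frequent at summits, all of which have 2 or more G or C. Flanks had 41.7% G and C, against 38.2% at summits, and the part of composition in this call was not tested.

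**Figure D4:**
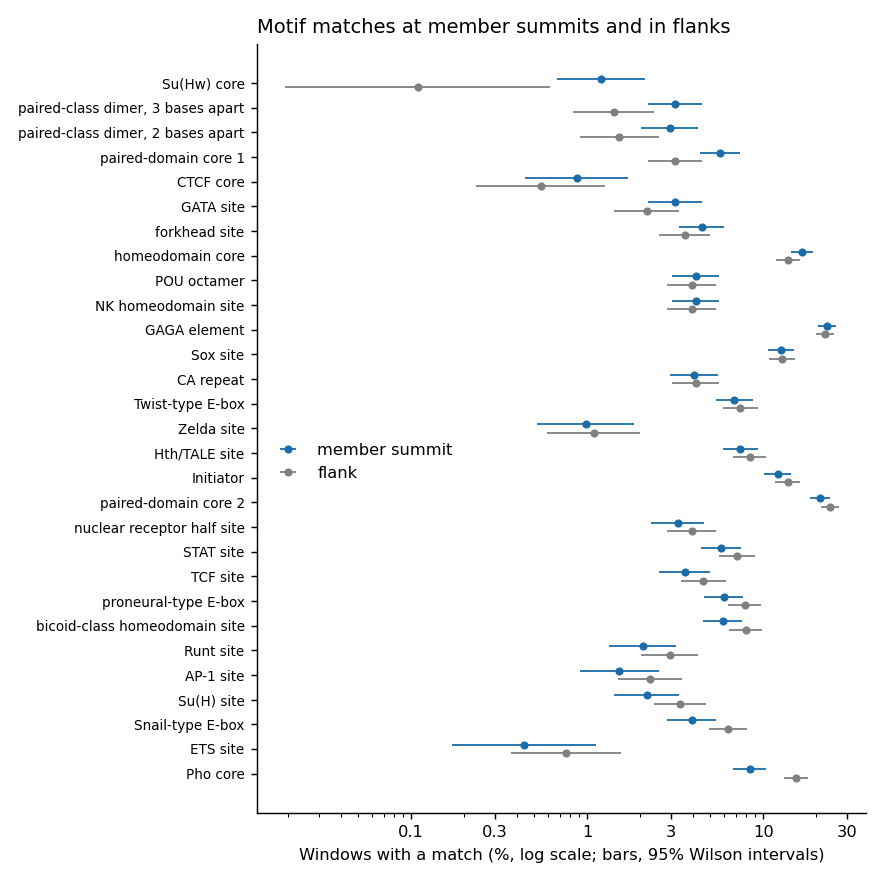
Share of windows with at least 1 match (x axis, %, log scale) for each motif with 10 or more matching windows in all (y axis), at member summits (blue) and in flanks (grey) of 919 members, with 95% Wilson intervals. The Su(Hw) core stands at 1.197% of summits against 0.11% of flanks, and the Pho core at 8.38% against 15.3%.

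Against genic peaks at the same distances, members differed in 1 of 32 motifs. The forkhead site TGTTTAC was in 4.44% of members and 7.83% of genic peaks (Fisher's exact test, adjusted p = 0.013). The replicates' own lists gave 4.62%, 4.63% and 5% of intergenic peaks, against 7.998%, 7.82% and 8.37% of genic peaks. Peaks over 10000 bp from a TSS held it in 4.36%, close to members, and peaks within 500 bp of one in 6.50%. In the 919 members with a flank, it was at 4.46% of summits and 3.59% of flanks (exact McNemar adjusted p = 0.69). By Fisher's exact test the call was lost with an upper limit of 5000 bp (ratio 0.66, adjusted p = 0.44), without replicate 2 (ratio 0.58, adjusted p = 0.11) and with windows of 50 bp to each side (ratio 0.52, adjusted p = 0.079), against a ratio of 0.57 in the main setting. Among peaks above the list's median signal the ratio was 0.36 (Fisher's exact test, adjusted p = 0.000706). Motifs less frequent in members were thus 3.12% of those tested, and motifs more frequent were 0%. With unadjusted p under 0.05, 1 was less and 2 were more frequent. The closest of these was GTCACG, at 5.82% of members and 3.45% of genic peaks (Fisher's exact test, adjusted p = 0.059), which passed with start sites of all annotated genes (adjusted p = 0.010). GTCACG was in 5.27% of peaks within 500 bp of a TSS and 4.71% of peaks over 10000 bp from one.

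Base composition differed between summit and flank. The summit windows had 38.2% G and C, against 41.7% in the flanks, and in the replicates' own lists the values were 37.3%, 38.9% and 39.2% at summits, against 41.4%, 41.1% and 41.7% in flanks. Of the 2080 hexamers, with both strands merged, 92 (4.42%) were more and 71 (3.41%) less frequent at summits (exact McNemar, adjusted p under 0.05 over 2080). Of the 92, 72 have at most 1 G or C, and all 71 that were less frequent have 2 or more. The part of composition in these counts was not tested. The list is led by A and T words such as ATTATA, at 27.9% of summits and 14.8% of flanks.

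Words with 2 or more G or C made up the other 20. AGTGTA was found at 17.2% of summits and 6.86% of flanks, a ratio of 2.51 (adjusted p = 1.4e-08, exact McNemar), with replicate ratios of 2.50, 2.48 and 2.38. CAGTGC was at 17.5% of summits and 8.60% of flanks, a ratio of 2.04 (adjusted p = 4.1e-06, exact McNemar), with replicate ratios of 2.11, 1.72 and 1.69. In windows of 50 bp to each side neither passed the exact McNemar test, with ratios of 1.75 (adjusted p = 0.12) and 1.59 (adjusted p = 0.20). The related word ACAGTG had a ratio of 2.23, and for GTGCAC the ratio was 2.175. Either of the first pair was found in 321 members, or 31.7% (Wilson interval 28.9% to 34.6%), against 26.0% of genic peaks, 22.01% of peaks within 500 bp of a TSS and 28.7% of peaks over 10000 bp away. No factor is assigned to these words here. They were picked after the hexamer counts were seen, so what follows is a description with no test.

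AGTGTA and CAGTGC lay beside the summit and pointed away from it. A word points away when, read 5′ to 3′, it runs from the summit outwards. At 50 to 150 bp from the summit, 171 of 214 AGTGTA matches (79.9%) and 148 of 197 CAGTGC matches (75.1%) pointed away. At 500 to 1000 bp, 194 of 409 (47.4%) and 213 of 448 (47.5%) did. For either word at 50 to 150 bp, 78.3%, 77.7% and 76.1% pointed away in the replicates' own lists (mean 77.4% ± 1.103, SD, n = 3), against 49.3% ± 0.09 at 500 to 1000 bp. The groups of replicate values did not overlap, though the replicates' lists share many windows.

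The rate of matches was also highest to the sides. AGTGTA had 0.66 matches per kb within 50 bp of the summit and 1.12 per kb at 50 to 150 bp, against 0.41 per kb at 500 to 1000 bp. CAGTGC had 0.68, 1.02 and 0.44 per kb at those distances. TAATTA had the opposite order, as given above. In the replicates' own lists, AGTGTA averaged 1.03 ± 0.06 per kb at 50 to 150 bp and 0.66 ± 0.09 within 50 bp (SD, n = 3). Members with an outward word at 20 to 140 bp on both sides numbered 67, and 284 had at least 1. Among the 100 strongest members, 41 had at least 1.

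**Figure D5:**
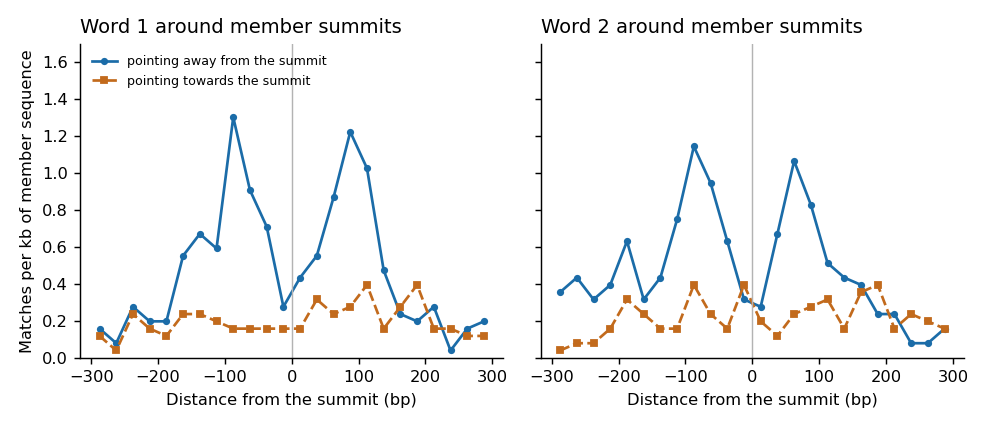
Matches per kb of member sequence in 25 bp steps (y axis) against distance from the summit in bp (x axis) for AGTGTA (word 1, left) and CAGTGC (word 2, right), pointing away from the summit (blue, solid) or towards it (orange, dashed), over 1013 members. Outward matches reach 1.30 and 1.15 per kb at 75 to 100 bp left of the summit, and inward matches stay at or below 0.39 per kb.

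The letters before the words were rich in T. At positions 4 to 8 before AGTGTA, 53.4% of letters were T, against 28.5% at positions 4 to 8 after it, over 193 matches in the members. For CAGTGC the shares were 49.5% before and 28.0% after, over 198 matches. The next letter after CAGTGC was A in 62.1% of matches. Genic peaks had 51.2% and 46.6% T before the words.

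The outward arrangement was found in the other classes as well. At 50 to 150 bp, 73.99% of matches pointed away in genic peaks, 79.4% in peaks over 10000 bp from a TSS and 63.1% in peaks within 500 bp of one. Members with an outward word at 20 to 140 bp had a median signal of 260, against 239 in members without, and 62.7% of them were in all 3 top lists, against 53.6%. A non-coding TSS lay within 500 bp of 9.51% of members with the word and 11.1% of those without it. TAATTA was in 18.3% of members with an outward word and 15.4% of those without.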

How the data were processed

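The analysis began from 5 peak lists that the authors deposited: 1 for each of 3 replicates, 1 pooled and the optimal IDR list, on dm6. Per the deposited notes, each list was made against a control. For the aligner, the peak caller and the threshold on IDR, nothing is stated in those notes or the labels. The deposited signal column is the authors' peak height and was used to rank peaks within a list. Values of −log10 q that the authors deposited entered no result, and the deposited p column holds no p-values. The deposited summit offset, a value with no further unit, gave each summit. Signal tracks were not analysed here. The optimal list holds the 5746 highest peaks of the pooled list, so the lists are not independent, and an optimal peak need not be in every replicate.

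The annotation was Ensembl release 115, with 13945 genes coding for protein, and bases were read from RefSeq's genome release 6 (dm6). Arms were 2L, 2R, 3L, 3R, 4 and X. Each peak belongs to the nearest protein-coding TSS, and 13 members lie nearest to a TSS that genes share. Shares carry Wilson and densities exact Poisson intervals at 95%. Replicates were compared with an exact sign-flip permutation test, motif shares with exact McNemar or Fisher's exact tests, two-sided, with Benjamini-Hochberg adjustment. Motifs were searched on both strands as fixed letters. The sequence tests were tried on simulated data with evenly spaced summits and the same background base composition at summits and flanks. The part of composition in the real calls was therefore not tested there. Python 3.11.15, numpy 2.4.6, pandas 2.3.3, scipy 1.17.1 and matplotlib 3.10.9 were used. No more than the 3 samples of 1 group entered any value, and the labels call them biological replicates of 1 line.

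Members and lists were chosen with earlier results of these data known. The genes named in the text are those nearest to the 15 strongest members, the 10 genes with most members, up to 3 genes of each list, and gsb, gsb-n, wg, en and prd. RabGGTa, which ties with 6 members, the genes that flank a named gap, and the genes nearest to printed sequences are named beside these. Gaps with the most members, the hexamers AGTGTA and CAGTGC and their outward arrangement were chosen after their values were seen. Of the listed gene names, 6 matched no gene. Alternatives were other TSS sets, distance limits, peak thresholds, replicates, matching distances, windows and flanks.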

Additional observations from a re-analysis of the deposited data

How the results depend on the processing

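Members numbered 469 among peaks above the list's median signal (the stronger part), and 625 to 693 when 1 replicate was left out. Leaving 1 replicate out kept the optimal peaks with a summit within 100 bp in the top lists of both others. This filter can only lower the number and density of members, and the optimal list itself still rests on all 3 replicates. Recovery with 1 replicate left out was counted over all members, with fewer lists needed to match. Their density was 43.9 per Mb with start sites of all annotated genes, 49.7 with an upper limit of 5000 bp, 21.5 in the stronger part and 43.0 in replicate 3's own list, and 28.6 to 31.7 with 1 replicate left out. The ratio to genic density stayed above 1 in these settings, at 1.37, 1.54, 1.29 and 1.48 in the same order, and 1.36 to 1.45 with 1 replicate left out. The upstream share was 61.8% with all start sites, 74.9% with the 5000 bp limit and 64.8% with a lower limit just over 1000 bp, while the sequence itself was upstream for 58.8%, 69.5% and 62.3%, and it was 67.5% to 69.8% with 1 replicate left out. Recovery in all replicates was 92.1% in the stronger part, 41.5% within 50 bp, 62.8% within 250 bp, 89.7% in the full lists and 61.7% to 68.4% with 1 replicate left out. With the 5000 bp limit, members minus genic peaks in mean recovery was 0.48 percentage points, on the other side of 0 from the -0.74 of the main setting. It was also above 0 in the stronger part (0.055) and with matching within 250 bp (0.14).

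Hexamers more frequent at summits numbered 55 with that lower limit, 20 in the stronger part, 56 with windows of 50 bp to each side, 56 with flanks 500 bp away and 37 to 60 with 1 replicate left out. Less frequent ones numbered 44, 16, 44, 34 and 28 to 40 in the same order, and 38 with the 5000 bp limit. Motifs more frequent at summits numbered 4 with all start sites, 2 with flanks 500 bp away and 0 with the 5000 bp limit, in the stronger part, with windows of 50 bp to each side, with the flank on the other side and with any 1 replicate left out. Less frequent motifs numbered 0 in the stronger part, and 2 with windows of 50 bp to each side and with flanks 500 bp away. Against genic peaks, motifs less frequent in members numbered 2 with all start sites, 0 with the 5000 bp limit or windows of 50 bp to each side and 0 to 1 with 1 replicate left out, and 1 motif was more frequent with all start sites. The outward share was 79.0% with all start sites, 81.8% in the stronger part, 76.1% in replicate 3's own list and 77.6% to 80.8% with 1 replicate left out, alternatives chosen after seeing the data. The causes of these changes were not tested. Samples could not be paired between groups because all 3 replicates belong to 1 group. Without read counts, the depth behind a weak peak is unknown.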
